A study of Mus musculus with 12 samples.

Results

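The ANRIL knockout effect within diabetic kidneys was taken from 6 of the 12 renal cortex libraries, 3 of ANRIL knockout diabetic mice (KO-D) against 3 of wild-type diabetic mice (WT-D). No gene was picked beforehand, and every gene with enough reads was tested, which was 18461 of the 55421 genes counted. All 12 mice were male and carry 1 strain label, 129S6/SvEvTac-Del[4C4-C5]1Lap/Mmcd, the wild-type mice included, at a labelled age of 8 weeks. The KO-D mice are labelled as knockouts, and in that line a stretch of non-coding sequence of chromosome 4 beside the Ink4 genes is deleted in the germline, so that every cell of the body carries the deletion. Both diabetic groups were injected with streptozotocin at 50 mg/kg body weight on 5 consecutive days and kept for 2 months. The 6 other libraries, 3 of wild-type controls (WT-C) and 3 of knockout controls (KO-C) that were not made diabetic, were used in the same model for the spread between mice and are given where the same genes are set side by side.

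ANRIL is a long non-coding RNA that is transcribed antisense to the Ink4 genes, which encode inhibitors of the cell cycle kinases. It is known in human cells as a partner of Polycomb proteins, which silence genes, and of the histone acetyltransferase p300. In the diabetic kidney, high glucose is known to load the proximal tubule, where most filtered solute is taken up with energy from mitochondria, and matrix builds up in glomeruli and interstitium. Streptozotocin destroys the insulin-producing cells of the pancreas and serves as a model of type 1 diabetes.

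Some libraries stood apart, and this bears on every value that follows. WT-D replicate 1 carried markers of fat (summed level of 10 adipocyte markers 451 CPM, or reads per 1000000 counted reads, against 24.3 to 80.2 in the other 11 libraries) and of adrenal cortex (33.5 CPM against 2.14 to 5.46). WT-D replicate 3 lay at 5.92 on the principal component that separated diabetic from control mice, where the other 5 diabetic libraries lay at 47.9 to 66.0 and the controls at -65.4 to -33.0. WT-D replicate 2 correlated more closely with KO-D replicate 2 (r = 0.989 across genes) than with either WT-D library. Among the controls, WT-C replicate 1 was relatively high for short transcripts, with a log2 slope of -0.188 per doubling of transcript length. That slope was -0.107 to 0.033 in the other controls. The WT-D libraries held 32638706 to 67336174 counted reads and the KO-D libraries 23781928 to 28894558, so that depth did not overlap between the groups. All 27 markers of the first proximal tubule segments passed the filter on low counts and summed to 24000 to 48800 CPM in WT-D and 21900 to 31900 CPM in KO-D. In bulk tissue, fewer cells of a type and less RNA per cell cannot be told apart.

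In the diabetic kidneys the knockout was nearly all on the side of lower levels. In all, 1021 genes (5.53% of those tested) differed at a limma adjusted p under 0.05, of which 1002 (5.43%) had less RNA in KO-D mice and 19 (0.103%) had more. The genes that were lower had a median log2 difference of -0.97, and 469 of them were lower by more than 2-fold, while the median over all tested genes was -0.02. Protein-coding genes made up 890 of them and processed pseudogenes 90. The 3 KO-D values lay wholly below the 3 WT-D values for 993 of the 1002 genes, where 16.2% of all tested genes did so, and wholly above for the 19 higher genes, where 8.70% of all did so (24.9% for both directions together). The calls and this separation rest on the same values, and most genes named below were chosen to be apart. A lack of overlap therefore adds no support to a call. No gene passed an adjusted p of 0.01 with limma (the smallest was 0.010, and 3344 genes had a p under 0.05 before adjustment), while edgeR's quasi-likelihood test gave 85 genes at that threshold and DESeq2 901.

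The count rested on single libraries. Without WT-D replicate 1, without WT-D replicate 3 or without KO-D replicate 3 limma called 0 genes (2938, 2607 and 2405 genes at an unadjusted p under 0.05, with smallest adjusted p of 0.0509, 0.0613 and 0.0749). Without KO-D replicate 1 it called 174 genes. The count rose to 1348 without WT-D replicate 2 (592 at an adjusted p under 0.01) and to 1321 without KO-D replicate 2 (355 at that threshold). With WT-C replicate 3, KO-C replicate 1 or KO-C replicate 2 left out, the counts were 628, 579 and 582, although these mice are not in the comparison. Of the 1002 lower genes, WT-D replicate 2 was the lowest WT-D library in 907 and KO-D replicate 2 the highest KO-D library in 843, while over all 18461 tested genes the same held for 5297 and 7352.

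**Figure D1:**
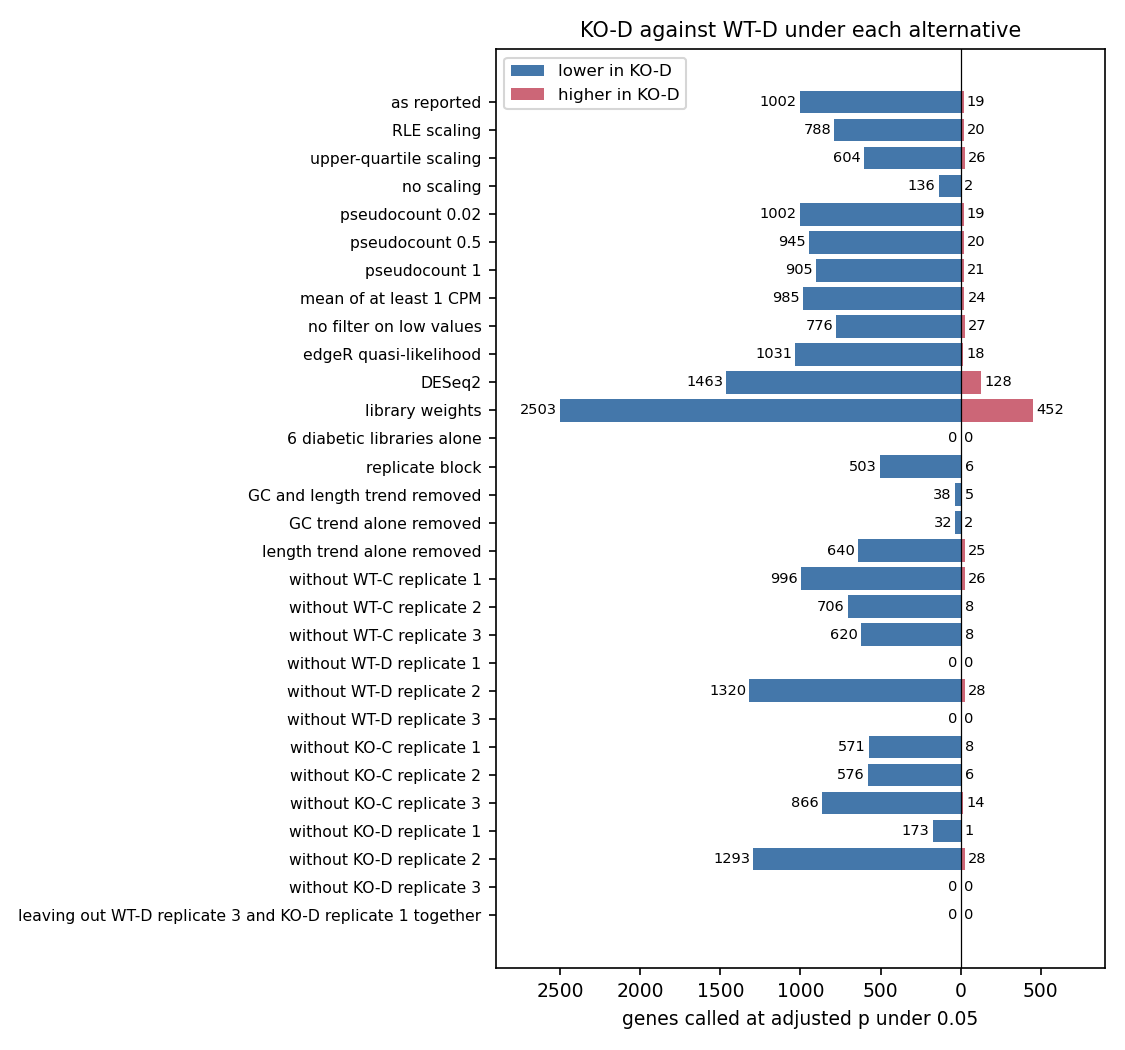
Number of genes lower (blue, to the left) and higher (red, to the right) in KO-D against WT-D at an adjusted p under 0.05, as reported and under each alternative. Lower genes outnumber higher ones wherever any gene was called, with 1002 and 19 as reported, 2503 and 452 with library weights and 32 and 2 with the GC trend alone removed, and 0 genes were called when WT-D replicate 1, WT-D replicate 3 or KO-D replicate 3 was left out.

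The lower genes were those whose transcripts are rich in G and C. The GC content of the longest annotated transcript had a median of 57.3% among the lower genes, 45.9% among the higher genes and 49.0% among the genes that were not called. When the genes were ordered by GC content into 10 groups of 1843, 0 genes of the lowest group (median 39.5%) were lower in KO-D and the median log2 difference was 0.18. In the highest group (median 59.1%) 486 genes, or 26.4%, were lower and the median log2 difference was -0.61. Lower genes also had shorter transcripts, with a median of 2062 bases against 2908 bases for genes that were not called and 5742 bases for the higher genes.

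The same trend was seen within single libraries. The slope of the log2 level on GC content, relative to the mean of all libraries, was -0.41, -0.10 and -0.34 per 10 points of GC in KO-D replicates 1, 2 and 3. It was 0.16, -0.03 and 0.18 in the WT-D replicates and 0.02 to 0.17 in the 6 control libraries. All KO-D libraries were thus below all others, and WT-D replicate 2 and KO-D replicate 2 lay next to each other. With 3 against 3 libraries an exact permutation test of this slope could not go below 0.10. Whether the slope comes from the mice or from the handling of the RNA was not tested.

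**Figure D2:**
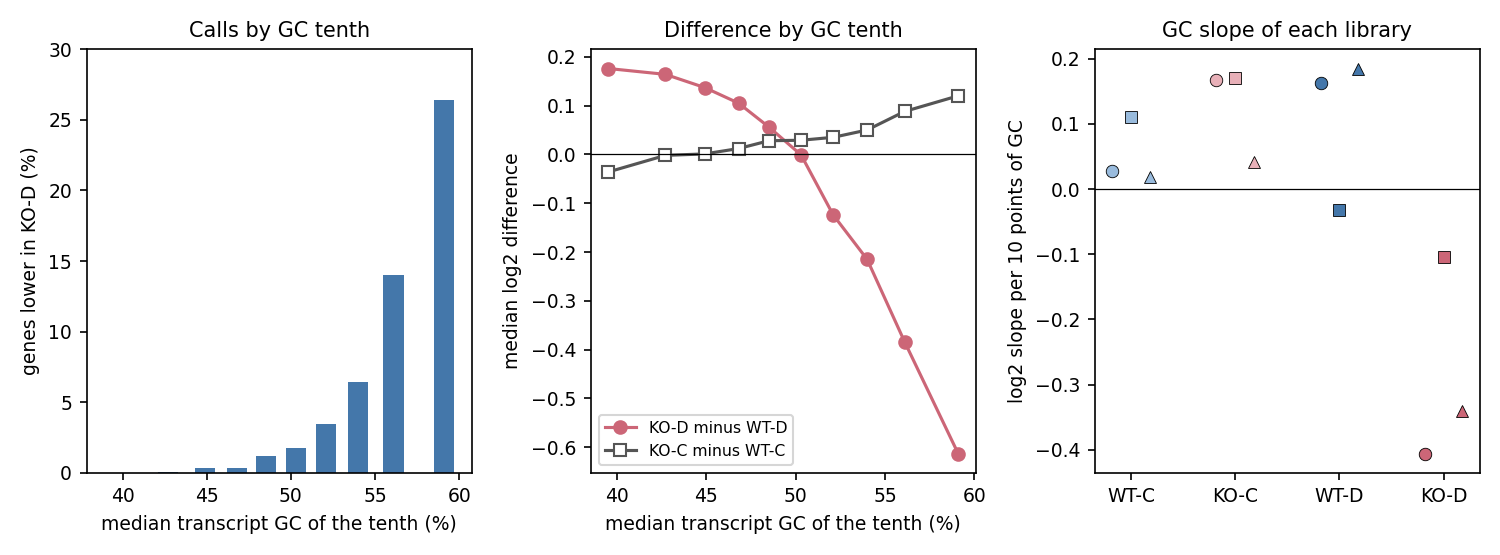
Left, percentage of genes lower in KO-D against WT-D in 10 equal groups of genes ordered by transcript GC content (1843 genes each), from 0 in the lowest group to 26.4% in the highest. Middle, median log2 difference of each group, which falls from 0.18 to -0.61 for KO-D minus WT-D (filled) and goes from -0.04 to 0.12 for KO-C minus WT-C (open). Right, log2 slope per 10 points of GC of each library (circle, square and triangle for replicates 1, 2 and 3), with the KO-D libraries below all others.

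After a smooth trend with GC content and length was taken out of each library, 43 of 18430 genes were called, 38 lower (0.206%) and 5 higher, and 39 of them had been called before. The results are therefore given below with the adjusted p after removal of the trend beside the first one for the genes on which most weight falls. Of the 107 genes named by rule, 94 lost the call with the trend removed.

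Sepiapterin reductase, Spr (ENSMUSG00000033735, chromosome 6, 85130176 to 85137766 of mm10), which makes the cofactor tetrahydrobiopterin, was among the genes that kept it. Its level, as CPM scaled by TMM factors like all levels of genes given here, was 66.4, 50.4 and 72.0 CPM in WT-D replicates 1, 2 and 3 and 28.0, 32.8 and 31.1 CPM in the KO-D replicates. The KO-D values were close together and all below the lowest WT-D value, a 2.03-fold lower level (log2 difference -1.02 ± 0.14 SE, adjusted p = 0.010, and 0.0415 with the trend removed). In the control mice Spr was at 87.4 to 102 CPM in WT-C and 92.4 to 97.5 CPM in KO-C, with a KO-C minus WT-C log2 difference of 0.02 ± 0.14. Snx8, a sorting nexin of endosomes, was at 47.4, 37.3 and 47.1 CPM in WT-D and at 19.6, 21.5 and 20.04 CPM in KO-D. The groups did not overlap here either (log2 -1.10 ± 0.15, adjusted p = 0.010), but with the trend removed the difference was -0.50 and the adjusted p 0.207.

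Processed pseudogenes among the 38 genes that stayed lower were Gm11449, Gm11605, Gm12922, Gm14036, Gm15454, Gm16418, Gm8225, Nutf2-ps2, Rpl29-ps2 and Rpl3-ps2. The long non-coding RNA genes Gm26917 and D330023K18Rik stayed lower too. Other protein-coding genes that stayed lower with the trend removed came from several compartments of the cell. Scrn2, a member of the secernin family, was at 58.6, 30.4 and 71.5 CPM in WT-D and at 11.8, 17.2 and 11.7 CPM in KO-D (log2 -1.91 ± 0.27, adjusted p = 0.010 and 0.0415). Its highest KO-D value was below its lowest WT-D value, and both were those of replicate 2. Mitochondrial and peroxisomal import was represented by Tomm40, the pore of the outer mitochondrial membrane (log2 -1.46, and -1.16 with the trend removed), and by Pex14, a docking protein of the peroxisome (-1.50 and -1.40). Esrra, a nuclear receptor that drives mitochondrial genes, was at 47.7, 18.9 and 41.0 CPM in WT-D and at 10.8, 12.9 and 6.60 CPM in KO-D (log2 -1.77, and -1.72 with the trend removed, adjusted p = 0.0470). All 3 KO-D values of Esrra were below the WT-D values, with the WT-D replicates far apart.

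The other genes of this kind included Mbd3, a subunit of the NuRD chromatin complex (log2 -1.71, and -0.94 with the trend removed), Pgls, an enzyme of the pentose phosphate pathway (-1.56 and -1.03), Lamtor1, which anchors the Ragulator complex to lysosomes (-0.71 and -0.69), Slc52a2, a riboflavin transporter (-1.22 and -1.03), Arpc3, a subunit of the actin-branching Arp2/3 complex (-0.79 and -0.75), and Bola2, which takes part in the transfer of iron-sulfur clusters (-2.02 and -1.96). Hist1h2bg, Hist1h2bk, Hist1h2bl, Hist1h2bq and Hist1h2br, genes of histone H2B with near-identical coding sequences between which reads can be split, also stayed lower, and Hist1h2bl was at 8.83, 6.01 and 12.1 CPM in WT-D and 2.15, 2.92 and 2.29 CPM in KO-D. The list of canonical histones, which holds none of these 5, went the other way, with 0 of 16 lower, 1 higher (Hist3h2a) and a median of 0.11, or 0.37 with the trend removed. Canonical histone transcripts lack a poly(A) tail, so their reads in a library made from poly(A) RNA are uncertain.

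**Figure D3:**
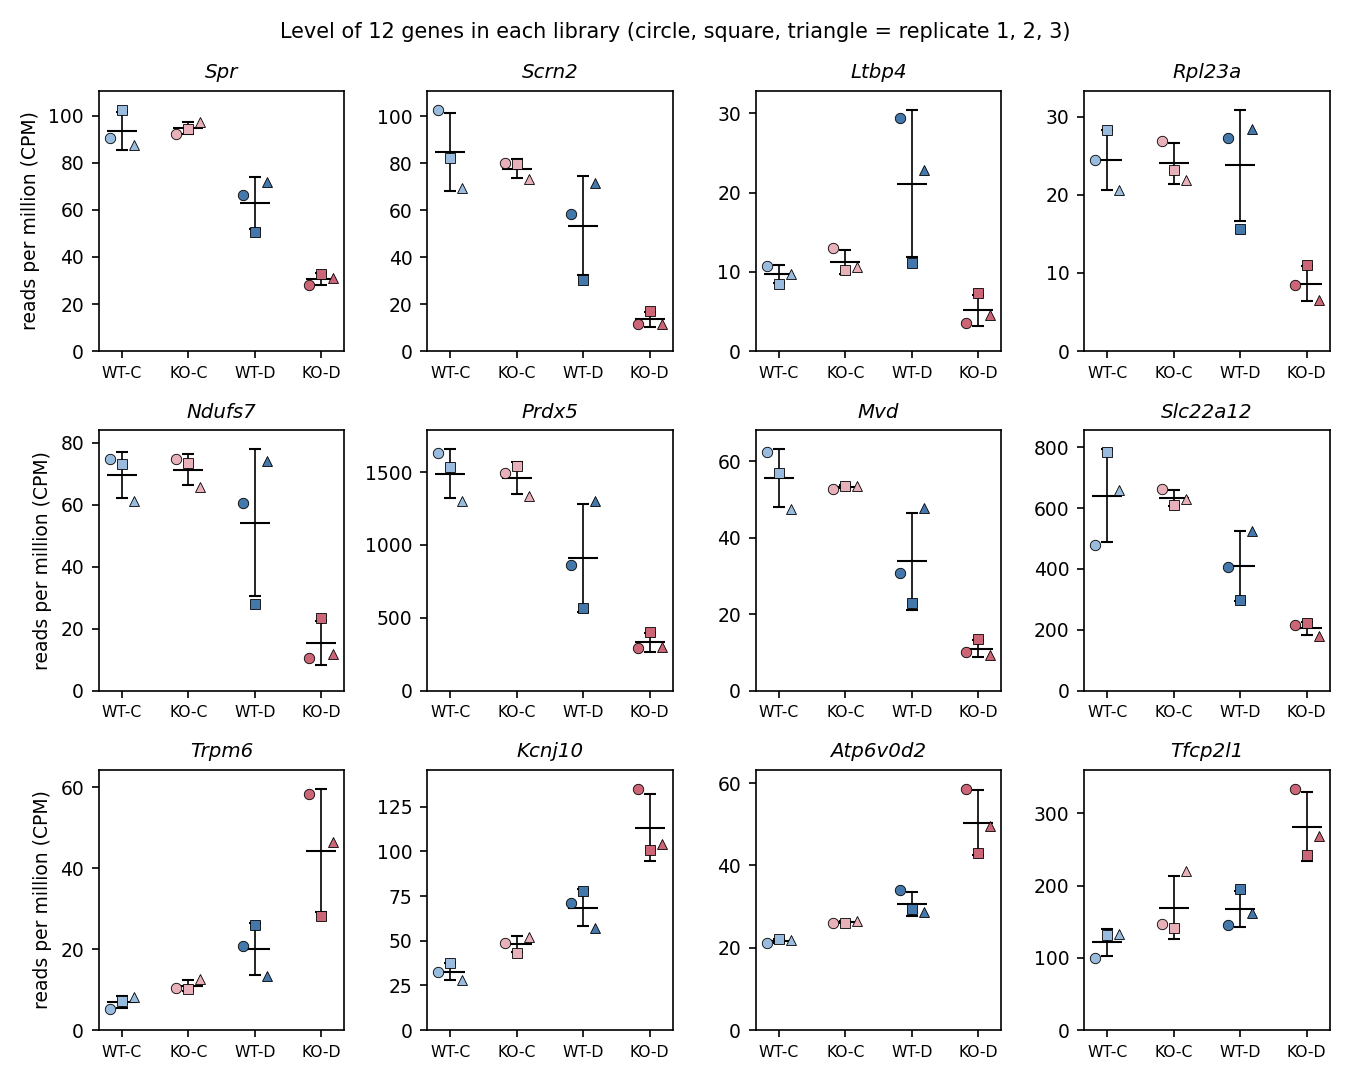
TMM-scaled CPM of 12 genes in every library by group, with the mean and SD of each group of 3 mice as a dash and bars. The first 8 genes lie lower in all KO-D libraries than in all WT-D libraries (Spr 28.0 to 32.8 against 50.4 to 72.0 CPM), with WT-D replicate 2 the lowest of its group in all of them, and the last 4 lie higher (Atp6v0d2 43.1 to 58.6 against 28.6 to 34.0 CPM).

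The largest decreases were of genes with few reads or with near-identical copies. Rpl36, a protein of the large ribosomal subunit, was at 71.3, 14.2 and 55.3 CPM in WT-D and at 3.73, 8.93 and 3.93 CPM in KO-D. Its WT-D values were spread widely, with replicate 2 nearer to the KO-D values than to its own group (log2 -2.89 ± 0.52, adjusted p = 0.0114, and 0.0526 with the trend removed), and its pseudogene Rpl36-ps12 had a difference of -2.80. Reads of such a pair may be split between them, which was not tested. The copies of the lymphatic chemokine Ccl21 on chromosome 4 and on unplaced scaffolds were lower by 2.26 to 2.74 on the log2 scale, and their reads cannot be assigned to 1 copy. Ccl21b of chromosome 4 was at 0.717, 5.92 and 1.75 CPM in WT-D and at 0.347, 0.263 and 0.0892 CPM in KO-D, so that WT-D replicate 2 was far above the rest. Without that library its log2 difference was -1.97 (adjusted p = 0.0541), those of the other Ccl21b and Ccl21c copies were -1.93 to -1.96 (0.0654 to 0.0847), and the Ccl21a copies stayed at -2.19 and -2.21 (0.0199 and 0.0363). In the control mice the Ccl21b and Ccl21c copies had KO-C minus WT-C differences of -1.38 to -1.93 (unadjusted p of 0.0093 to 0.0461, adjusted p = 0.586). Tpgs1, of the tubulin polyglutamylase complex, was at 3.91, 2.27 and 5.02 CPM in WT-D and at 0.569, 1.05 and 0.297 CPM in KO-D (log2 -2.44 ± 0.37), and kept the call with the trend removed (adjusted p = 0.0483). Dohh, which completes the hypusine residue of the translation factor eIF5A, was at 4.40, 1.86 and 5.33 CPM against 0.411, 1.18 and 0.625 CPM (log2 -2.22 ± 0.39, and adjusted p = 0.0515 with the trend removed).

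Genes of the cytosolic ribosome gave the largest count of any list. Of 76 tested, 20 were lower (26.3%, beside 5.43% of all genes), 0 were higher and 56 did not pass, with a median log2 difference of -0.40. Rplp1, of the ribosomal stalk, was at 305, 111 and 232 CPM in WT-D and at 54.7, 74.4 and 55.3 CPM in KO-D (log2 -1.71 ± 0.29, adjusted p = 0.010, and 0.0540 with the trend removed). The WT-D replicates ran over a wide range and KO-D did not reach into it. Rpl23a was the only gene of the list that kept the call with the trend removed, at 27.2, 15.6 and 28.5 CPM against 8.40, 11 and 6.48 CPM (adjusted p = 0.010, and 0.0415). The list was also below 0 in the control mice, with a median KO-C minus WT-C difference of -0.36. Its median transcript length was 1100 bases. Over all genes with transcripts of 720 to 1270 bases the control difference had a median of -0.16. In those genes WT-C replicate 1 lay at a median of 0.38 from the mean of all libraries, against -0.21 to 0.21 elsewhere. The part of that library in the control value of the list was not tested. Eef2, which moves the ribosome along the message, was at 793, 568 and 756 CPM in WT-D and at 379, 440 and 312 CPM in KO-D (log2 -0.91, adjusted p = 0.0346, and 0.514 with the trend removed).

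In the nuclear-encoded respiratory chain 13 of 70 genes were lower (18.6%, beside 5.43% of all genes), 0 higher and 57 not called, with a median of -0.28, beside -0.34 in the control mice. The median transcript length was 1003 bases, and the part of WT-C replicate 1 in this control value was not tested. Ndufs7, of complex I, was at 60.5, 28.0 and 74.2 CPM in WT-D and at 10.7, 23.5 and 11.8 CPM in KO-D. The gap between the groups was narrow at replicate 2 of each (log2 -1.79 ± 0.33, adjusted p = 0.0116, and 0.0553 with the trend removed). Ndufb7 of complex I (-1.76), Uqcr11 of complex III (-1.72) and Atp5d of the ATP synthase (-1.23) were lower too, and with the trend removed 0 genes of this list were called. The 13 protein genes of the mitochondrial genome, whose GC content is low (median 37.1%), gave 0 calls and a median of -0.23. Of 71 mitochondrial ribosomal proteins 5 were lower, a share of 7.04% near the 5.43% of all genes, and Mrpl12 was one of them at 152, 108 and 171 CPM against 63.4, 72.1 and 59.3 CPM.

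In the oxidative stress list 6 of 32 genes were lower (18.8%, beside 5.43% of all genes), 0 were higher and 26 were not called (median -0.31, and 0.00 in the control mice), and with the trend removed 0 were called. The 6 are known to handle peroxides or to work in the pentose phosphate pathway. Prdx5, a peroxiredoxin, was at 860, 570 and 1300 CPM in WT-D and at 294, 405 and 297 CPM in KO-D (log2 -1.39 ± 0.26, adjusted p = 0.0120, and 0.0882 with the trend removed). Gpx1, the main cytosolic glutathione peroxidase, was at 734, 453 and 879 CPM against 322, 265 and 261 CPM. Neither gene kept its call with the trend removed. Taldo1 (-1.20) and Tkt (-1.02), of the non-oxidative pentose phosphate pathway, and Pgd (-0.63) and Txn2 (-0.65) were the other members called.

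In lipid metabolism, Mvd, which makes isopentenyl diphosphate for sterols, was at 30.9, 22.9 and 47.7 CPM in WT-D and at 10.1, 13.4 and 9.40 CPM in KO-D (log2 -1.56 ± 0.22, adjusted p = 0.010, and 0.0525 with the trend removed). Mvk of the same pathway (-1.26), Srebf1, the transcription factor that turns lipid synthesis on (-1.07), and Fasn, the fatty acid synthase (-0.98), made up the 4 lower genes of 30 with it (13.3%, beside 5.43% of all genes). The rest of that list did not pass, and its median was -0.09. With the trend removed 0 genes of the list were called. Srebf1 was at 20.8, 9.36 and 9.56 CPM in WT-D and at 5.43, 6.70 and 5.41 CPM in KO-D. Fasn was at 43.0, 22.4 and 35.55 CPM against 13.2, 22.4 and 14.9 CPM. Both were highest in WT-D replicate 1, the library with fat markers, while Mvd and Mvk were highest in WT-D replicate 3. The part of fat in these values was not tested. Of 40 genes of fatty acid oxidation 3 were lower (7.5%, near the 5.43% of all genes), the peroxisomal thiolases Acaa1a (-1.10) and Acaa1b (-1.23), which are close paralogs, and the short-chain dehydrogenase Acads (-1.18), with 0 higher and a median of -0.17. Acads was at 137, 81.8 and 140 CPM in WT-D and at 50.6, 59.3 and 45.1 CPM in KO-D. Pfkl, of glycolysis, and Sdhb, of the citric acid cycle, were the single lower genes of 21 each (4.76%, below the share of all genes).

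Among genes of proximal tubule transport, 4 of 23 glucose and sodium transport genes and 3 of 34 organic ion and drug transporters were lower (17.4% and 8.82%, beside 5.43% of all genes), 0 higher. With the trend removed 0 genes of either list were called. Slc22a12, the urate transporter of the brush border, was at 406, 298 and 525 CPM in WT-D and at 214, 221 and 180 CPM in KO-D (log2 -0.96 ± 0.22, adjusted p = 0.0231, and 0.519 with the trend removed). Slc34a3, a phosphate transporter (-1.42), Slc9a3r1, a scaffold that holds transporters in the brush border (-0.88), Slc5a10, a sugar transporter (-0.82), and Slc2a5, the fructose transporter GLUT5 (-0.71), were the 4 of the first list. Miox, the inositol oxygenase of the renal tubule, was at 439, 498 and 695 CPM against 388, 260 and 326 CPM (log2 -0.74, adjusted p = 0.0459, and 0.523 with the trend removed). Of the 27 markers of the first proximal segments 2 were lower, Miox and Slc22a12 (7.41%, near the 5.43% of all genes), and of the 15 markers of the third segment 0 were. The summed level of both marker lists overlapped between the groups. Yet 22 of the 27 and 15 of the 15 markers were below 0, where 9552 of all 18461 genes were. The medians were -0.21 and -0.27, or -0.22 and -0.27 with the trend removed, beside 0.21 and -0.11 in the control mice. The part of cell numbers was not tested.

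Ctsd, cathepsin D, was at 327, 279 and 407 CPM in WT-D and at 182, 219 and 154 CPM in KO-D (log2 -0.87 ± 0.17, adjusted p = 0.0130, and 0.262 with the trend removed). Neu1, the lysosomal sialidase, was at 372, 305 and 403 CPM against 190, 219 and 197 CPM. These were 2 of 4 lower genes among 32 lysosomal genes (12.5%, beside 5.43% of all genes). Of 31 proteasome genes 5 were lower (16.1%, beside 5.43% of all genes), by 0.46 to 0.91 on the log2 scale, but the median of that list was -0.06. With the trend removed 0 genes of the lysosomal and proteasome lists were called. Napsa, an aspartic protease of proximal tubule lysosomes, was at 1290, 1200 and 2110 CPM in WT-D and at 297, 1070 and 581 CPM in KO-D (log2 -1.38 ± 0.38, adjusted p = 0.0484, and 0.228 with the trend removed).

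Matrix genes were mostly below 0 but seldom called. Over all 18461 tested genes 9552 were below 0. Of 33 collagens and interstitial matrix genes 30 had a negative log2 difference, the median was -0.48 (and 0.17 in the control mice), and 2 were lower (6.06%, near the 5.43% of all genes), Col18a1 at 138, 73.7 and 104 CPM against 40.9, 71.5 and 42.1 CPM (log2 -1.03 ± 0.23, adjusted p = 0.0224, and 0.218 with the trend removed) and Eln, elastin (-1.11). The WT-D and KO-D replicates 2 of Col18a1 were almost equal. Of 20 basement membrane genes 1 was lower (5.00%), Lamb2, the laminin chain of the glomerular filter (-1.16). Col4a1 was at 170, 117 and 144 CPM in WT-D and at 74.2, 115 and 93.7 CPM in KO-D (log2 -0.61 ± 0.18, adjusted p = 0.0663), and Fn1, fibronectin, at 42.3, 32.8 and 51.6 CPM against 18.7, 46.3 and 35.9 CPM (-0.40 ± 0.32, adjusted p = 0.565). The groups of Fn1 overlapped. The summed level of 16 mesangial, fibroblast and mural markers was 463 to 561 CPM in WT-D and 330 to 449 CPM in KO-D, with 1 of the 16 lower (Cspg4, -1.23). All 16 passed the filter on low counts, and the part of these cells in the matrix values was not tested.

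In TGF-beta and BMP signaling 2 of 36 genes were lower and 0 higher (median -0.10), a share of 5.56% that is close to the 5.43% of all genes. Ltbp4, which binds the latent TGF-beta complex to elastic fibres, was at 29.5, 11.1 and 22.9 CPM in WT-D and at 3.54, 7.36 and 4.55 CPM in KO-D. It did not overlap between the groups and kept its call with the trend removed (log2 -1.97 ± 0.32, adjusted p = 0.010, and 0.0415 with a difference of -1.32). Id3, a target of BMP signals, was at 14.7, 6.95 and 11.5 CPM against 3.82, 5.29 and 2.41 CPM (-1.51, adjusted p = 0.0285). Tgfb1 itself was at 6.22, 4.47 and 5.26 CPM in WT-D and at 3.66, 5.94 and 4.55 CPM in KO-D (-0.18 ± 0.23, adjusted p = 0.740), which overlapped. Vegfa, the endothelial growth factor made by podocytes and tubules, was at 80.7, 67.4 and 53.7 CPM against 64.5, 58.9 and 57.1 CPM (-0.14 ± 0.17, adjusted p = 0.732).

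Immune and inflammatory lists held few calls. Of 33 NF-kB genes 2 were lower (6.06%, near the 5.43% of all genes), Icam1, which leukocytes bind on endothelium, at 18.6, 10.2 and 11.2 CPM against 5.84, 7.78 and 6.90 CPM (log2 -0.91, adjusted p = 0.0457, and 0.342 with the trend removed), and Nfkbib, an inhibitor of NF-kB (-0.87). Cyba, a subunit of the NADPH oxidase, was at 169, 116 and 248 CPM in WT-D and at 65.2, 77.0 and 63.4 CPM in KO-D (-1.31 ± 0.23, adjusted p = 0.0109, and 0.104 with the trend removed). Of 40 AGE-RAGE and NADPH oxidase genes 2 were lower (5.00%, near the 5.43% of all genes), 0 with the trend removed, and 16 were above 0. Of 14 genes of MHC class II and costimulation 2 were lower (14.3%, beside 5.43% of all genes), H2-DMa (-1.09) and H2-DMb1 (-0.75), with a median of -0.55. With the trend removed 0 of them were called. The macrophage and dendritic cell markers, 0 of 15 called, summed to 136 to 270 CPM in WT-D and 87.5 to 202 CPM in KO-D, and their part in these values was not tested. Interferon-stimulated genes gave 0 calls in 46 with a median of 0.38, as did 22 complement genes with a median of -0.27.

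Of cell death genes, Bax, which opens the outer mitochondrial membrane, was at 19.8, 19.3 and 25.6 CPM in WT-D and at 9.29, 13.2 and 9.10 CPM in KO-D (log2 -1.04 ± 0.18, adjusted p = 0.0109, and 0.537 with the trend removed), and Bad was lower by 1.18 on the log2 scale. They were the 2 called genes of 33 in apoptosis (6.06%, near the 5.43% of all genes). Krt8, a keratin of injured tubules, was the 1 lower gene of 22 tubular injury genes (4.55%, log2 -0.77). Among cell cycle genes Ccnd3 was the 1 of 41 (2.44%, log2 -0.82). These shares are near or below that of all genes.

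Of the 13 distal convoluted and connecting tubule markers and the 13 intercalated cell markers 1 each was higher, Trpm6 and Atp6v0d2, with 0 lower. Over all genes tested 0.103% were higher and 5.43% lower. Trpm6 (ENSMUSG00000024727, chromosome 19, 18749983 to 18892511 of mm10), the magnesium channel of the distal convoluted tubule, was at 20.9, 26.0 and 13.4 CPM in WT-D and at 58.4, 28.1 and 46.6 CPM in KO-D. The groups came close at their replicates 2 and did not overlap (2.19-fold higher, log2 1.13 ± 0.28, adjusted p = 0.0353, and 0.110 with the trend removed). Kcnj10, the basolateral potassium channel Kir4.1, was at 71.2, 77.7 and 56.9 CPM in WT-D and at 135, 100.8 and 104 CPM in KO-D (log2 0.72 ± 0.16, adjusted p = 0.0239, and 0.0862 with the trend removed). Atp6v0d2, a proton pump subunit of intercalated cells, was at 34.0, 29.5 and 28.6 CPM against 58.6, 43.1 and 49.6 CPM (0.71 ± 0.13, adjusted p = 0.0122, and 0.0659). Tfcp2l1, a transcription factor of the collecting duct, was at 146, 195 and 163 CPM against 334, 242 and 269 CPM (0.74 ± 0.20, adjusted p = 0.0464, and 0.254).

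These differences had the same sign in the control mice, where KO-C minus WT-C was 0.68 ± 0.28 for Trpm6, 0.56 ± 0.16 for Kcnj10, 0.27 ± 0.13 for Atp6v0d2 and 0.47 ± 0.20 for Tfcp2l1, none of them called. The summed level of 13 distal convoluted and connecting tubule markers was 2490 to 2930 CPM in WT-D and 2550 to 4950 CPM in KO-D, highest in KO-D replicate 1, and that of 13 intercalated cell markers was 403 to 489 CPM and 501 to 612 CPM, without overlap. The medians of these lists were 0.32 and 0.38, beside 0.36 and 0.27 in the control mice, and the part of cell numbers was not tested. Slc12a3, the thiazide-sensitive cotransporter that defines the distal convoluted tubule, was at 558, 462 and 263 CPM in WT-D and at 721, 422 and 433 CPM in KO-D (0.32 ± 0.27, adjusted p = 0.585), which overlapped. The other distal lists held no higher gene. Of 11 principal cell markers 1 was called and it was lower, the water channel Aqp3 at 79.9, 89.9 and 86.8 CPM in WT-D and 57.7, 64.1 and 47.5 CPM in KO-D (-0.61 ± 0.16, adjusted p = 0.0473, and 0.306 with the trend removed), and the summed level of that list was 547 to 642 CPM against 431 to 572 CPM. In the principal cell list 6 of 11 markers were above 0, and the median was 0.02, or 0.19 with the trend removed. Of 13 thick ascending limb markers 0 were called, with a median of -0.16.

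Of the other higher genes, Asns, asparagine synthetase, was the 1 called gene of 38 in the heat shock and ER stress list, at 17.4, 18.2 and 16.3 CPM in WT-D and 28.1, 23.2 and 27.0 CPM in KO-D. Xpo1, the exportin that carries proteins out of the nucleus, was at 35.5, 42.0 and 35.4 CPM against 78.0, 54.0 and 68.1 CPM (log2 0.81 ± 0.20). Kdm5d, a histone demethylase gene of the Y chromosome, was at 9.02, 8.10 and 4.50 CPM against 12.8, 11.6 and 13.6 CPM (0.86 ± 0.22). Plekhd1 (0.66) was the only higher gene that kept its call with the trend removed (0.98, adjusted p = 0.0489). Bsnd, the barttin subunit of chloride channels in the distal nephron, was 1 of 4 genes that passed only after removal of the trend. The others were Rusc1, Ybx2 and Gm6485. Bsnd was at 33.7, 36.0 and 35.7 CPM in WT-D and 52.1, 51.6 and 40.7 CPM in KO-D (log2 0.45, adjusted p = 0.10, and 0.86 with 0.0415). Its KO-C minus WT-C difference was about as large in the control mice (0.455 ± 0.145, not called). Gm2115, named only as a predicted gene, was higher by 1.14. The remaining higher genes, Cbx5, Bzw2, Fbxo11, Nipal2, Unc13b, Slc16a5, Akap17b, Kctd12, Lurap1 and Hist3h2a, were higher by log2 differences of 0.45 to 0.87.

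**Figure D4:**
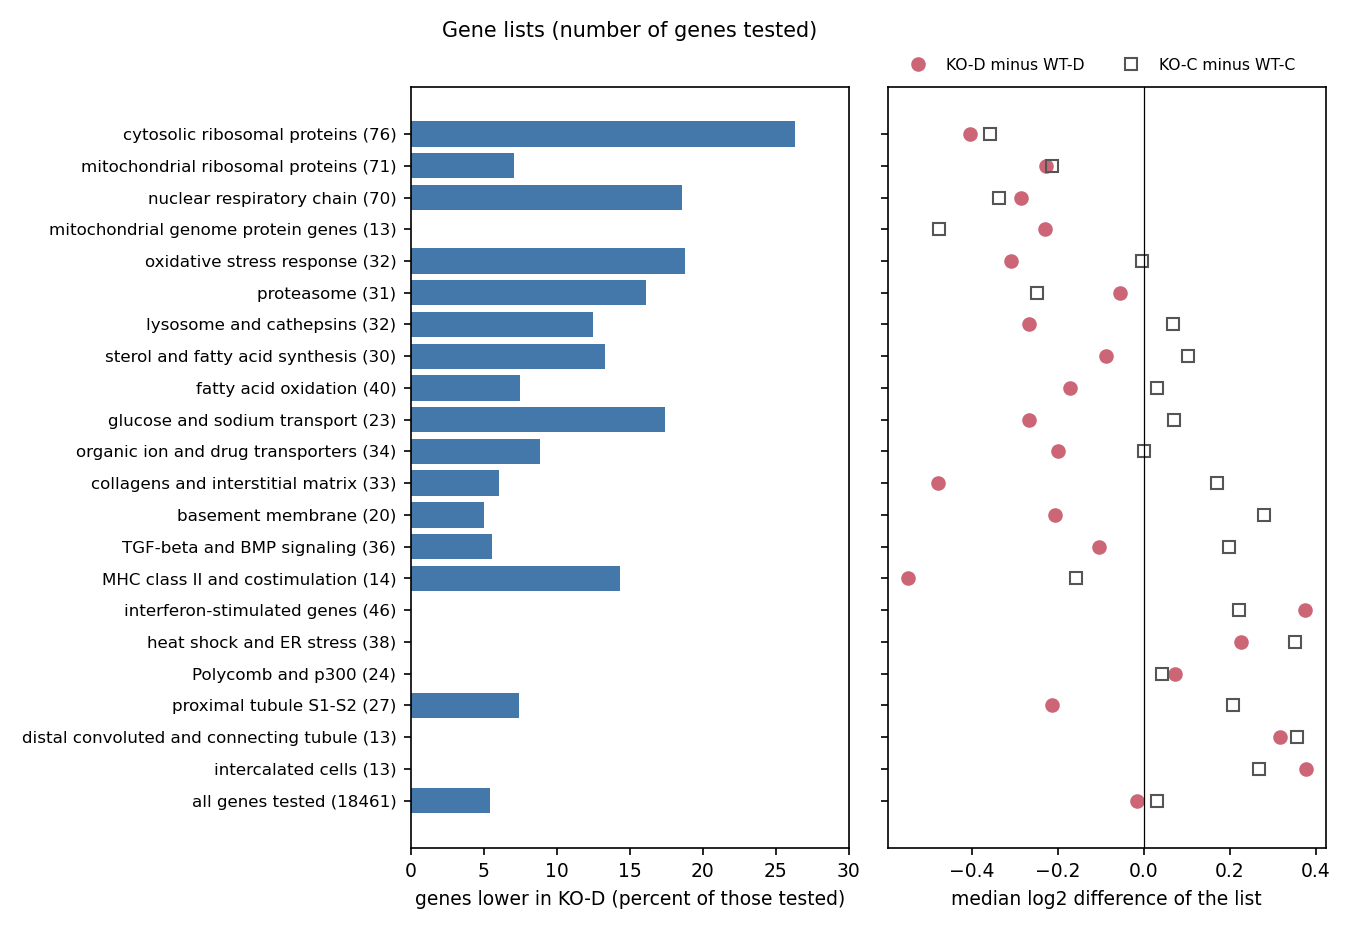
Gene lists with the number of genes tested. Left, percentage lower in KO-D against WT-D at an adjusted p under 0.05, from 26.3% of cytosolic ribosomal proteins to 0, beside 5.43% of all genes tested. Right, median log2 difference of each list in diabetic mice (filled) and in control mice (open). The ribosomal and respiratory chain lists are below 0 in both, and the collagen list is at -0.48 in diabetic and 0.17 in control mice. The part of WT-C replicate 1, which was high for short transcripts, in the control values was not tested.

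The upstream sequences were read for GC content and motifs, with no test. RefSeq gave a single promoter for 557 of the 993 lower genes with a symbol of their own, 13 of the higher and 9104 of the genes not called. In the 250 bases before the start site (GRCm38.p6) the median GC content was 59.6%, 60.8% and 59.2%. The GC box, GGGCGG or its reverse complement CCGCCC, stood in 64.6% of the windows of lower genes, in 61.5% of those of higher genes and in 56.1% of those of genes not called, where 32.7% of all 32851 promoters in the table hold it. The letters TATAAA or TTTATA stood in 5.75%, 15.4% and 7.16%, and in 12.4% of all. The windows of a pair of lower and a pair of higher genes are shown 5′ to 3′ along the gene's own strand, with each GC box in capitals.
Spr (chr6:85137765-85138014, minus strand): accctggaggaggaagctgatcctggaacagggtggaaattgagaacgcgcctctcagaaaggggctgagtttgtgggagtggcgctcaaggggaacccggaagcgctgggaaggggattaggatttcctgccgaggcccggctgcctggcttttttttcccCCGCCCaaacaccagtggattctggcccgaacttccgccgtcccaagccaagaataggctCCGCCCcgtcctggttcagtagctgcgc
Snx8 (chr5:140389309-140389558, minus strand): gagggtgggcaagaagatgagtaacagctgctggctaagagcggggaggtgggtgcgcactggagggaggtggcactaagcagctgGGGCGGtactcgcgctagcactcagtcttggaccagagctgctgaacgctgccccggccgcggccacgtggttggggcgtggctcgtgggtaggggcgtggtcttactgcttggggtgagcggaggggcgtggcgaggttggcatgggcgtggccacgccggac
Trpm6 (chr19:18749480-18749729, plus strand): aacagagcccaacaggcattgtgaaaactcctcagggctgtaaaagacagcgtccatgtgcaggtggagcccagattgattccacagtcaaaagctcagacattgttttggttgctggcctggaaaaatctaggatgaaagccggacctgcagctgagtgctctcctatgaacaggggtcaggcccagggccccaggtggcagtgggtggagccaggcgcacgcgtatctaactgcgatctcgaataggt
Kcnj10 (chr1:172340960-172341209, plus strand): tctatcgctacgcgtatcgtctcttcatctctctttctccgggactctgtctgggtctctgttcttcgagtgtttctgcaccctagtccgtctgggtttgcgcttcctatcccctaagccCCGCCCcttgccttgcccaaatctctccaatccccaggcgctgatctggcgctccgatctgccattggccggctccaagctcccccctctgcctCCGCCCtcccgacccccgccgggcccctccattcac
Spr and Kcnj10, which differ in direction, each hold 2 GC boxes, Snx8 holds 1 and Trpm6 holds 0. The windows have a GC content of 60.8%, 67.6%, 54.4% and 62.0% in the order printed, and none holds TATAAA on either strand.

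The locus that the knockout targets gave few reads. No gene of the annotation is named for ANRIL, and the noncoding genes next to the Ink4 genes, Gm12606, Gm12608, Gm12609 and Gm12610, had 0 to 6 reads in every library, so the genotype could not be checked by the targeted transcript. Cdkn2b (p15), whose gene lies beside the deleted stretch, had 165, 97 and 50 reads in WT-D and 2, 30 and 17 reads in KO-D. In the control mice it had 70, 39 and 16 reads in WT-C and 11 and 1 in KO-C replicates 2 and 3, but KO-C replicate 1 with 2.96 CPM was above every wild-type library. The values of the diabetic mice are 2.04, 2.23 and 1.72 CPM against 0.0632, 0.985 and 0.506 CPM, which do not overlap, and the difference did not pass the test (log2 -2.13 ± 0.93, adjusted p = 0.240). Cdkn2a had 4, 1 and 0 reads in WT-D and 0 in every KO-D library, too few for any statement at this depth. Dmrta1, further along the locus, had 7, 3 and 1 reads in WT-D and 1, 0 and 2 reads in KO-D, also too few. Mtap, an enzyme of methionine salvage at the same locus, was at 25.1, 27.4 and 27.3 CPM against 23.2, 21.9 and 23.9 CPM (-0.21 ± 0.12, adjusted p = 0.417).

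Partners of ANRIL and other inhibitors of the cell cycle gave no call. Of 24 Polycomb and p300 genes 0 were called, with a median of 0.07. Ezh2, the Polycomb methyltransferase, was at 4.54, 4.45 and 3.61 CPM in WT-D and at 6.73, 5.65 and 6.01 CPM in KO-D (log2 0.54 ± 0.23, adjusted p = 0.221), higher in all KO-D libraries. Ep300 was at 31.6, 28.8 and 18.1 CPM against 33.7, 30.6 and 27.7 CPM (0.27 ± 0.23, adjusted p = 0.592). Cdkn1a (p21) was at 72.4, 63.6 and 63.5 CPM against 88.5, 65.8 and 120 CPM (0.42 ± 0.29, adjusted p = 0.503), with both groups far above the 2.49 CPM mean of WT-C. Nphs1, nephrin of the podocyte slit diaphragm, was at 14.04, 13.5 and 9.70 CPM against 11.3, 8.47 and 9.96 CPM (-0.31 ± 0.32, adjusted p = 0.671).

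The same genes were set beside the knockout effect in control mice, which rests on 6 other libraries. Of the 1002 genes that were lower in the diabetic knockouts, 436 were below 0 and 566 above 0 in KO-C against WT-C, with a median of 0.04, while 8465 of all 18461 genes were below 0 there with a median of 0.03. In KO-C against WT-C 0 of the 1002 were called (51 at an unadjusted p under 0.05). The same counts over all tested genes are not given here, so neither number is a result about these genes. Of the 19 higher genes 14 were above 0 and 5 below 0 in the control mice. The test of the difference between the genotype effect in diabetic and in control mice gave 0 genes with limma (the smallest adjusted p was 0.0771, and 2688 genes had p under 0.05 before adjustment), 0 by the quasi-likelihood test of edgeR and 708 by DESeq2. Without WT-D replicate 2 limma called 659 genes in this test and without KO-D replicate 2 it called 506. With the trend with GC content and length removed it called 0, and the smallest adjusted p was 0.354.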

How the data were processed

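Renal cortex RNA of 12 mice (TruSeq RNA V2 libraries, NovaSeq) had been aligned by the authors with STAR 2.7.3a to mm10 and counted per gene. The deposited table of 55421 genes holds CPM, with each library summing to 1000000, and all 298586 values above 0 came out as whole reads within 0.01 reads. A second table, deposited with log2 fold changes and adjusted p-values of 5 comparisons by the authors, was not used.

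Recovered reads served for filterByExpr (10 reads in the library of median size, 15 in total), which kept 18461 genes and dropped 36960, and for TMM factors (edgeR 4.0.16), which were 0.891 to 1.20 in WT-D and 1.10 to 1.28 in KO-D. limma 3.58.1 (R 4.3.3, lmFit and eBayes with trend) was fitted to log2(TMM-scaled CPM + 0.1) of all 12 libraries with 4 group means and 8 residual degrees of freedom. A log2 difference on this scale understates the change of low genes. Adjusted p-values are Benjamini-Hochberg over all tested genes, and a call is an adjusted p under 0.05. The groups are those of the labels, with 3 biological replicates each. The test was checked on simulated data for this comparison, in which limma called 50% of 100 genes shifted 2-fold, 94% of 100 shifted 4-fold and 14 unchanged genes. The simulated reads held no GC trend and no library that stood apart, so the check does not cover either. Precision is limited by 3 mice per group and by 23781928 to 67336174 counted reads per library.

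GC content and length are those of each gene's longest transcript in GENCODE M21 (18430 genes). The trend was removed per library with natural splines of 5 degrees of freedom. Promoter windows are from RefSeq (GRCm38.p6). Tests with edgeR quasi-likelihood and DESeq2 1.42.0 used the recovered reads. The other alternatives were scaling, pseudocount, low-value filter, library weights, the diabetic libraries alone, a replicate block and each library left out. Removal of the GC trend or of the length trend alone, and leaving out a pair of libraries together, were added after seeing the data.

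The genes named are, among called genes whose mean reached 1 CPM, whose groups were apart and whose symbol is a proper gene name, the 12 with the largest increase, the 12 with the largest decrease, the 10 with the smallest p, the 10 with the highest mean and up to 4 of each of 59 lists with the smallest p. This gave 107 genes. Genes of the Ink4 locus were named whatever their values. Ezh2, Ep300, Cdkn1a, Tgfb1, Vegfa, Fn1, Col4a1, Slc12a3 and Nphs1 were added after their values were seen, as were list members and genes called with the GC trend removed or higher in KO-D that the rule left out. The comparison and the lists were chosen with earlier results of these data known.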

Additional observations from a re-analysis of the deposited data

How the results depend on the processing

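Lower genes outnumbered higher ones under every alternative that called any gene, and the log2 differences of the 107 named genes kept their sign under each of the 29 alternatives that gave them a value. The named genes were chosen with groups that lay apart, so leaving out a library could hardly turn their sign. The kept sign is therefore no further support for them. The count of 1021 genes (1002 lower, 19 higher) became 630 (604 lower) with upper-quartile scaling, 138 (136 lower, 2 higher) without scaling, 1591 (128 higher) with DESeq2, 2955 (2503 lower, 452 higher) with library weights and 0 (0 and 0, smallest adjusted p 0.0969, 3046 genes at an unadjusted p under 0.05) with the 6 diabetic libraries alone. It became 43 (38 lower, 5 higher) with the GC and length trend removed, 34 (32 and 2) with the GC trend alone removed and 665 (640 lower) with the length trend alone removed. Without scaling the median of all genes was 0.13 against -0.02. With 1 library left out the counts ran from 0 to 1348 genes, 0 to 1320 lower and 0 to 28 higher, and 0 genes were called with WT-D replicate 3 and KO-D replicate 1 both left out (1922 at an unadjusted p under 0.05). The causes of the moves with scaling, tool and library were not tested.

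The difference between the genotype effects in diabetic and control mice gave 0 genes as reported, 708 with DESeq2, 1864 with library weights, and 0 to 659 with 1 library left out. Replicate numbers did not pair the mice, since same-numbered libraries had correlations of their deviations between -0.35 and 0.295 and 1 of 12 libraries correlated best with its own number. With the replicate block 509 genes were called, 503 lower and 6 higher. The limits are 3 mice per group, depth that did not overlap between WT-D and KO-D, and WT-D libraries that differ in fat and adrenal markers and in their distance from the controls. At this depth and size limma called 50% of genes shifted 2-fold in simulated data, which held no GC trend and no library that stood apart.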
